A study of Mus musculus with 6 samples.

Results

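The ADAMTS proteins (a disintegrin and metalloproteinase with thrombospondin motifs) are secreted zinc proteases of the extracellular matrix, and the ADAMTS-like proteins share their carboxy-terminal domains but carry no protease domain. The 10 genes described here were chosen by name from the 44788 gene symbols of the count table and are *Adamts1*, *Adamts4*, *Adamts5*, *Adamts6*, *Adamts10*, *Adamts12*, *Adamts15*, *Adamts17*, *Adamtsl2* and *Adamtsl4*. Bulk RNA-seq of tail tendon, a dense collagenous tissue, compared 3 libraries of WT with 3 of Mkx-/- mice, all of strain C57BL/6. Mkx-/- mice carry a constitutive knockout of Mohawk (*Mkx*), a homeobox transcription factor of tendon cells, so the loss is not limited to tendon, and they are used as a model of tendon heterotopic ossification, in which bone forms inside tendon. The labels give an age of 3 weeks for all mice, and the study's methods give 4 weeks. No label ties a library to a single animal, so the p-values measure the spread between these libraries.

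ADAMTS proteases are made as inactive precursors, are trimmed by proprotein convertases such as furin, and are held in check by the inhibitor TIMP3. One branch cleaves the large proteoglycans aggrecan and versican, which hold water in the matrix and are abundant in cartilage and in compressed regions of tendon. Another branch is bound to fibrillin microfibrils, the thin filaments that carry elastin and store growth factors, and mutations of its members in people cause short stature, stiff joints or dislocated lenses.

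The catalytic centre of the proteases is shown first, since it is what separates the 8 proteases from the ADAMTS-like proteins. It is a run of 11 codons in which 3 histidines bind the zinc ion, and the histidine codons are in capitals in the coding sequences given here, 5′ to 3′, from the GENCODE transcripts of mouse build mm9.
Adamts1: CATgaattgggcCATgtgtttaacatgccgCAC
Adamts4: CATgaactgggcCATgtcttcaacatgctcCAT
Adamts5: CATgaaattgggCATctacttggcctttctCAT
Adamts15: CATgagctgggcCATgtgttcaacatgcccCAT
Adamts12: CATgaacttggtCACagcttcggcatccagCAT
Adamts6: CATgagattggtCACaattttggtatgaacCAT
Adamts10: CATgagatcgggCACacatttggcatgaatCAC
Adamts17: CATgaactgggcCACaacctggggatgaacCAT
The codon in the eighth place was glycine in 5 of these sequences and asparagine in 3, those of *Adamts1*, *Adamts4* and *Adamts15*. No such run was found in the coding sequences of *Adamtsl2* and *Adamtsl4*. In all 8 genes the run was split between neighbouring exons. For *Adamts6* it lay in exons 9 and 10 of 25 (chr13:105142927-105156889, plus strand), for *Adamts17* in exons 8 and 9 of 23 (chr7:74113784-74147359, plus strand) and for *Adamts15* in exons 2 and 3 of 8 (chr9:30718840-30719275, minus strand), where the spans include the intron. The most alike proteins of the 10 were those of *Adamts6* and *Adamts10*, with 60.2% identical residues in aligned positions, and *Adamts1* and *Adamts15* followed with 53.2%. The longest stretch of bases that any pair of the 10 transcripts shared was 23 bases, and no exon of another annotated gene overlapped an exon of the 10 genes in mm9.

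Each library held between 10835070 and 14160301 counts. *Mkx* was at 144, 136 and 135 normalized CPM (counts scaled to a common library size) in the WT and 56.8, 41.4 and 38.9 in the Mkx-/- libraries, and fell by 1.60 on the log2 scale (standard error 0.16, adjusted p = 0.00183), and reads on the gene remained. Counts on *Xist* and on Y-linked genes marked WT replicate 3 as male and the other 5 libraries as female. Without that library *Adamts6* was still higher in Mkx-/- tendons (adjusted p = 0.0350), and *Adamts15* and *Adamts17* did not pass the test (0.0705 and 0.0570). All 8 tendon markers were detected in every library. Their summed level, most of it *Col1a1* and *Col1a2*, was lower in Mkx-/- libraries, at 240665 to 335329 normalized CPM against 377279 to 520819 in WT. Of the 8 genes, 1 rose (*Thbs4*) and 1 fell (*Mkx*, the gene knocked out) at an adjusted p under 0.05. The 6 bone markers together reached only 1.26 to 2.96 CPM in any library. The 10 cartilage markers together reached 1573 to 2749 CPM, although *Matn1*, 1 of them, had 0 counts throughout. In bulk tissue, fewer cells of a type and less RNA per cell cannot be told apart. Of 14550 genes tested, 463 were higher and 329 lower in Mkx-/- tendons at an adjusted p under 0.05. Scaling by the library total alone gave 1358 higher and 197 lower and moved the median log2 fold change of all genes from -0.00 to 0.25. *Col1a1*, *Col1a2* and *Sparc* took 42.0% to 48.5% of the counts in WT and 28.3% to 34.8% in Mkx-/- libraries.

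All 10 genes passed the filter on low counts. Raw counts of *Adamts6* were 141, 121 and 185 in WT and 271, 346 and 259 in Mkx-/- libraries. *Adamts17* had 110, 160 and 242 in WT and 398, 389 and 491 in Mkx-/-, and *Adamts15* had 531, 467 and 509 in WT and 227, 287 and 376 in Mkx-/- libraries. Counts of the other 7 genes lay between 51, in *Adamts4*, and 2444, in *Adamts5*. After normalization *Adamts6* and *Adamts17* rose in Mkx-/- tendons, *Adamts15* fell, and the other 7 did not pass the test. These 3 calls of 10 stand beside 5.44% of all tested genes called in either direction, with 3.18% higher and 2.26% lower. The 10 genes were chosen with earlier results of these data known, so setting them beside all genes is not a test. Only *Adamts17* also passed a 2-fold change, as 3.22% of all tested genes did. The median log2 fold change of the 10 genes was 0.26, and that of all genes was -0.00; with scaling by the library total the values were 0.52 and 0.25. For 4 of the 10 genes the 3 Mkx-/- libraries lay on 1 side of the 3 WT libraries, which held for 28.2% of all tested genes.

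**Figure D1:**
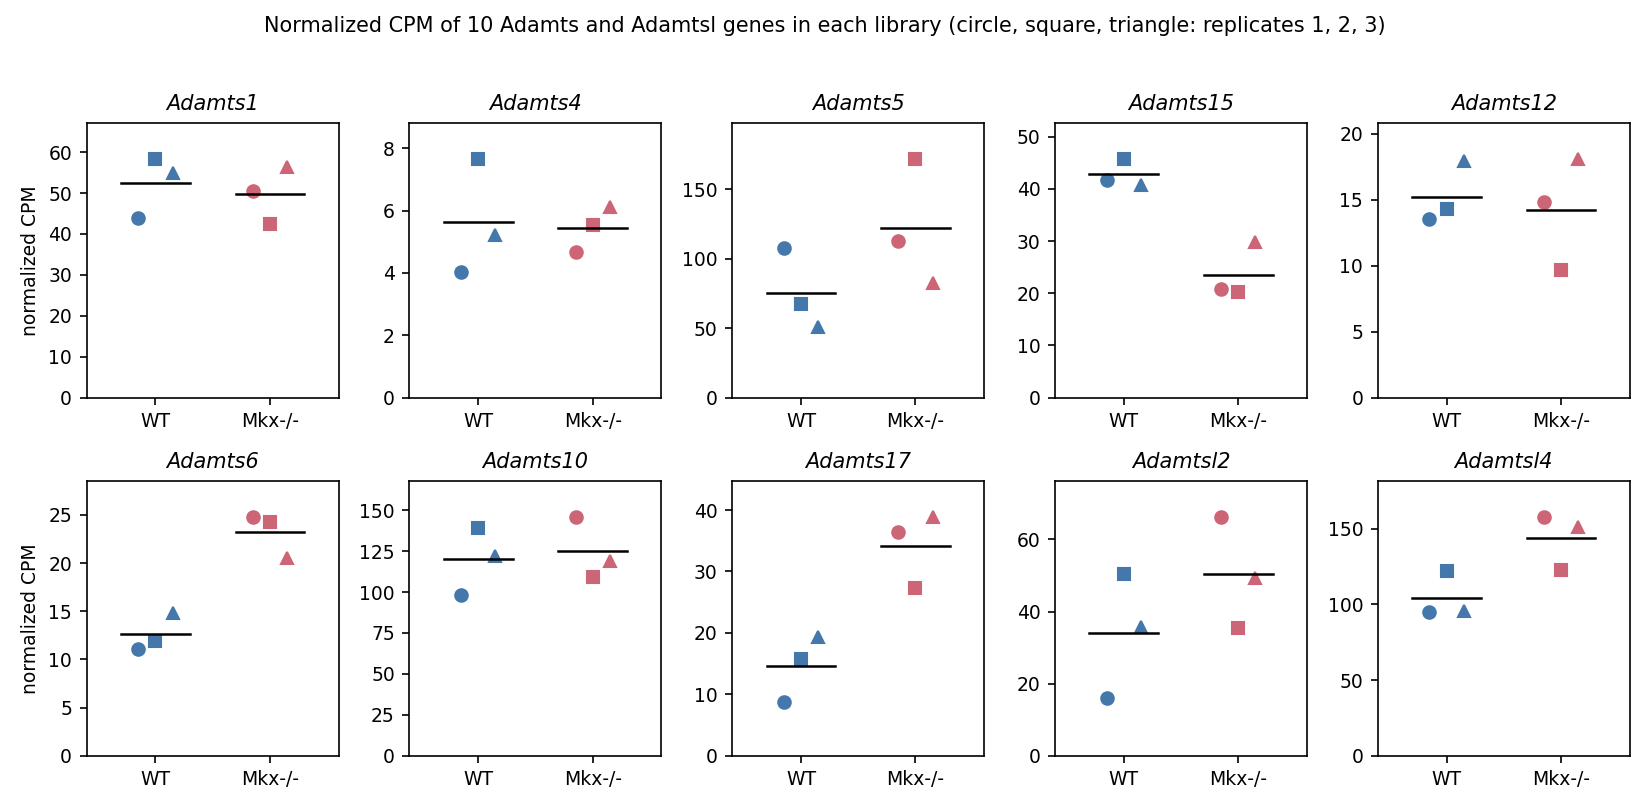
Normalized CPM (vertical axes, each from 0) of the 10 genes in every library, with WT in blue and Mkx-/- in red, symbols for replicates 1 to 3 and a line at each group mean. The groups are apart in Adamts15, Adamts6, Adamts17 and, by less than the height of a symbol, in Adamtsl4, and they overlap in the other 6 genes.

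Of the 4 proteoglycan-cleaving members, 1 fell and 3 did not pass the test, where 2.26% of all tested genes were lower. This grouping was written after the counts were seen. *Adamts15*, an aggrecan- and versican-cleaving protease on the minus strand of chromosome 9 (chr9:30706740-30730037), had 41.8, 45.8 and 40.8 normalized CPM in WT and 20.8, 20.2 and 29.8 in the Mkx-/- libraries. Every Mkx-/- library was below every WT library, with Mkx-/- replicate 3 the nearest. It fell by 0.86 on the log2 scale (95% interval of the fold change -1.25 to -0.47, adjusted p = 0.0270), a level 1.81-fold higher in WT. The call was lost without WT replicate 2 (adjusted p = 0.0887), WT replicate 3 (0.0705), Mkx-/- replicate 1 (0.0671) or Mkx-/- replicate 2 (0.0909), and when libraries were scaled by their totals (log2 fold change -0.60, adjusted p = 0.0856). Its log2 fold change stayed between -1.06 and -0.60 in all 13 alternatives.

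*Adamts5*, the main aggrecan-cleaving enzyme of mouse cartilage, pointed the other way without passing the test. Its level was 108, 67.2 and 51.2 normalized CPM in the WT and 113, 172 and 82.4 in the Mkx-/- libraries. WT replicate 1 stood among the Mkx-/- libraries, and Mkx-/- replicate 2 was the highest of all. The log2 fold change was 0.70 (95% interval -0.05 to 1.44, adjusted p = 0.251). It was 0.37 without Mkx-/- replicate 2 (adjusted p = 0.583), 0.47 without WT replicate 3 (0.497) and 1.05 without WT replicate 1 (0.0655).

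*Adamts1* and *Adamts4* showed no difference larger than the spread between libraries. *Adamts1*, which cleaves versican and is induced in inflammation and ovulation, lies 55056 bp from *Adamts5* on chromosome 16, both on the minus strand. Its level was 43.8, 58.4 and 54.9 normalized CPM in WT and 50.6, 42.5 and 56.4 in Mkx-/- libraries, with a log2 fold change of -0.07 (95% interval -0.43 to 0.29, adjusted p = 0.835). *Adamts4*, the other classical aggrecanase, had only 51 to 79 counts in any library, with 4.02, 7.66 and 5.21 normalized CPM in WT and 4.67, 5.55 and 6.10 in Mkx-/- libraries. Its log2 fold change was -0.04 (95% interval -0.63 to 0.56, adjusted p = 0.958). The sign of the fold change of *Adamts4* turned in 3 of the 13 alternatives. For *Adamts1* the log2 fold change was positive under library-total scaling (0.19) and without Mkx-/- replicate 2 (0.03), and was -0.00 without WT replicate 2.

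*Adamts12*, a protease that cleaves cartilage oligomeric matrix protein (COMP), also overlapped between the genotypes. Its level was 13.5, 14.3 and 17.9 normalized CPM in WT and 14.8, 9.70 and 18.1 in Mkx-/- libraries, so the lowest and the highest value both came from Mkx-/- tendons. The log2 fold change was -0.11 (95% interval -0.64 to 0.43, adjusted p = 0.834), with the opposite sign in 3 of the 13 alternatives.

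Of the 5 fibrillin-associated members, a grouping written after the counts were seen, 2 rose and 3 did not pass the test, where 3.18% of all tested genes were higher. Their log2 fold changes ran from 0.06 to 1.23 with a median of 0.57, that of *Adamts10* turned sign in 2 of the 13 alternatives, and 49.5% of all tested genes had a value above 0. *Adamts17*, a protease of uncertain substrates whose loss in people causes a syndrome of short stature and lens dislocation, lies on the plus strand of chromosome 7 (chr7:73984621-74297511). It had 8.67, 15.7 and 19.4 normalized CPM in WT and 36.5, 27.3 and 38.9 in Mkx-/- libraries. The groups did not overlap, and WT replicate 1 was the lowest of all. *Adamts17* rose by 1.23 on the log2 scale (95% interval 0.60 to 1.86, adjusted p = 0.0417), a 2.35-fold higher level in Mkx-/- tendons. The call held without WT replicate 1 (log2 fold change 0.96, adjusted p = 0.0220), but then no longer passed a 2-fold change. It was lost without WT replicate 2 (adjusted p = 0.118), WT replicate 3 (0.0570), Mkx-/- replicate 1 (0.0984), replicate 2 (0.0645) or replicate 3 (0.125).

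The promoter window of *Adamts17*, the only one of the 10 genes past a 2-fold change, is given from RefSeq (build GRCm38.p6, chr7:66839485-66839784, plus strand), from 250 bases before the transcript start to 50 after it, with CpG dinucleotides in capitals.
Adamts17 promoter: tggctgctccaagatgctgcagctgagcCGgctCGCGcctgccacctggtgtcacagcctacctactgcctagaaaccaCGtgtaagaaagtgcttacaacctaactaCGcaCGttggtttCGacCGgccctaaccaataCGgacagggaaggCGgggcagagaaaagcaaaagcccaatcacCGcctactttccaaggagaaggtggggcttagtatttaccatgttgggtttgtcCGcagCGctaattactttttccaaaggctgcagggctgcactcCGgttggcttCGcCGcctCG
It held 17 CpG dinucleotides, against a median of 7 in all 32851 promoter windows. The palindrome ACANNTGT, the motif of Iroquois homeodomain proteins, the class nearest to Mohawk, was in 0 of the 5 windows of members that the table held (those of *Adamts1*, *Adamts12*, *Adamts17*, *Adamtsl2* and *Adamtsl4*) and in 7.38% of all windows. This says only that these letters are not in these windows.

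*Adamts6*, a protease needed for normal heart development and the closest relative of *Adamts10*, lies on the plus strand of chromosome 13 (chr13:105077953-105284843). Its level was 11.1, 11.9 and 14.8 normalized CPM in WT and 24.8, 24.3 and 20.5 in Mkx-/- libraries, and the groups did not overlap. *Adamts6* rose by 0.88 on the log2 scale (95% interval 0.52 to 1.24, adjusted p = 0.0186), a 1.84-fold higher level in Mkx-/- tendons. The call was lost without WT replicate 2 (adjusted p = 0.0859), Mkx-/- replicate 1 (0.0582) or Mkx-/- replicate 2 (0.0710), and held in 9 of the 13 alternatives.

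*Adamts10*, whose product binds fibrillin and favours microfibril assembly, stayed within the spread between libraries. Its level was 98.2, 139 and 122 normalized CPM in WT and 146, 109 and 119 in Mkx-/- libraries, with a log2 fold change of 0.06 (95% interval -0.33 to 0.45, adjusted p = 0.880) and the opposite sign in 2 of the 13 alternatives. A ratio of counts within a library does not depend on how libraries are scaled, and 3 such ratios are given without a test, since the pairs were chosen after their values were seen. The ratio of *Adamts6* to *Adamts10* counts was 0.113, 0.0855 and 0.122 in WT and 0.170, 0.224 and 0.173 in Mkx-/- libraries. The ratio of *Adamts6* to *Adamts15* was 0.266, 0.259 and 0.363 in WT and 1.19, 1.21 and 0.689 in Mkx-/- libraries. For *Adamts17* to *Adamts15* it was 0.207, 0.343 and 0.475 in WT and 1.75, 1.36 and 1.31 in Mkx-/- libraries. In all 3 ratios the genotypes did not overlap. For the ratios to *Adamts15* this had to be so, since both genes of each pair were already apart between the genotypes, in opposite directions.

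Neither *Adamtsl4* nor *Adamtsl2*, the ADAMTS-like genes among the 10, passed the test. *Adamtsl4*, which binds fibrillin and is mutated in people with displaced lenses, had 94.7, 122 and 95.6 normalized CPM in WT and 158, 123 and 151 in Mkx-/- libraries. The groups did not overlap, although WT replicate 2 and Mkx-/- replicate 2 were nearly level. The log2 fold change was 0.47 (95% interval 0.11 to 0.82, adjusted p = 0.119). It passed the test in 1 of the 13 alternatives, scaling by the library total, with a log2 fold change of 0.72 (adjusted p = 0.0208) where the median of all genes was 0.25. *Adamtsl2*, mutated in geleophysic dysplasia, had 16.1, 50.4 and 35.6 normalized CPM in WT and 66.3, 35.3 and 49.4 in Mkx-/- libraries, the widest spread within WT of the 10 genes at 3.14-fold. Its log2 fold change of 0.57 (95% interval -0.31 to 1.44, adjusted p = 0.431) became 0.22 without WT replicate 1 (adjusted p = 0.659) and 0.29 without Mkx-/- replicate 1 (0.749).

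**Figure D2:**
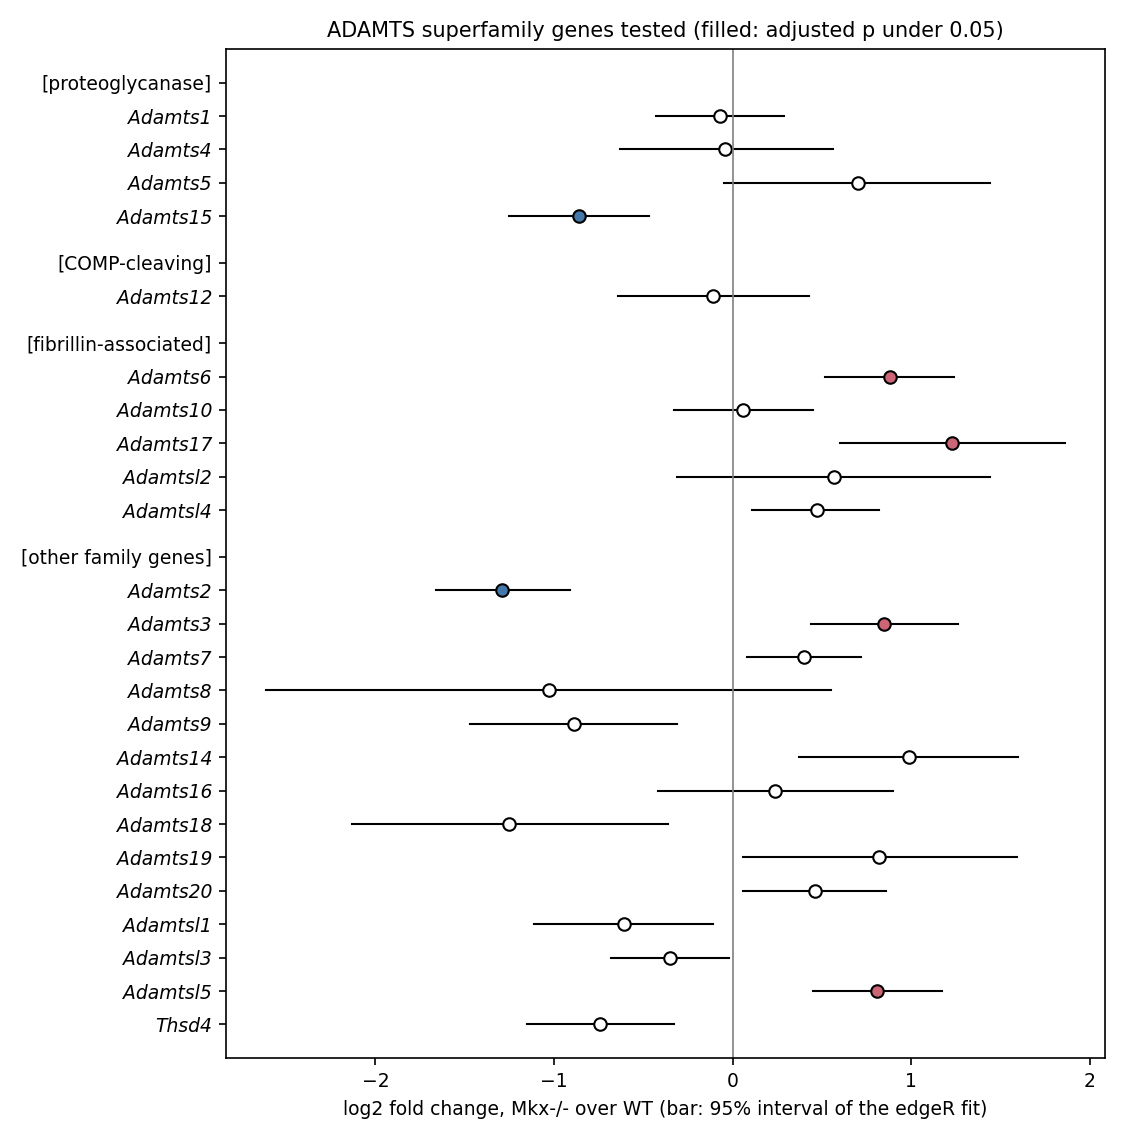
Log2 fold change of Mkx-/- over WT (horizontal axis) for the 24 ADAMTS superfamily genes tested, with the 95% interval of the edgeR fit as a bar and filled points for an adjusted p under 0.05. Adamts6, Adamts17, Adamts3 and Adamtsl5 are filled to the right of 0, and Adamts15 and Adamts2 to the left.

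To compare levels between genes, normalized CPM was divided by the length of the merged exons in kb. In WT tendons *Adamtsl4* and *Adamts10* led with 24.8 ± 3.68 and 22.0 ± 3.75 CPM per kb (SD, n = 3), and their ranges over libraries overlapped. *Adamts1* followed at 9.88 ± 1.44, *Adamts5* at 9.34 ± 3.65 and *Adamts15* at 7.22 ± 0.450 CPM per kb (SD, n = 3), each range overlapping the next. *Adamtsl2*, *Adamts6*, *Adamts12*, *Adamts17* and *Adamts4* came last, between 4.26 and 1.17 CPM per kb, again with each neighbour overlapping the next. In Mkx-/- tendons *Adamtsl4* at 34.2 ± 4.45 CPM per kb (SD, n = 3) stood clear of *Adamts10* at 22.9 ± 3.56. *Adamts15* moved from the fifth place to the eighth, at 3.98 ± 0.910 CPM per kb, and *Adamts17* from the ninth to the sixth, at 4.74 ± 0.846 CPM per kb. The ranges of *Adamtsl2*, *Adamts17*, *Adamts6* and *Adamts15* in Mkx-/- tendons overlapped, so their order there is not resolved. In WT, too, the range of *Adamts17* overlapped those of its neighbours. *Adamts4* was the lowest in both genotypes, at 1.17 ± 0.386 CPM per kb in WT and 1.13 ± 0.150 in Mkx-/- tendons (SD, n = 3).

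**Figure D3:**
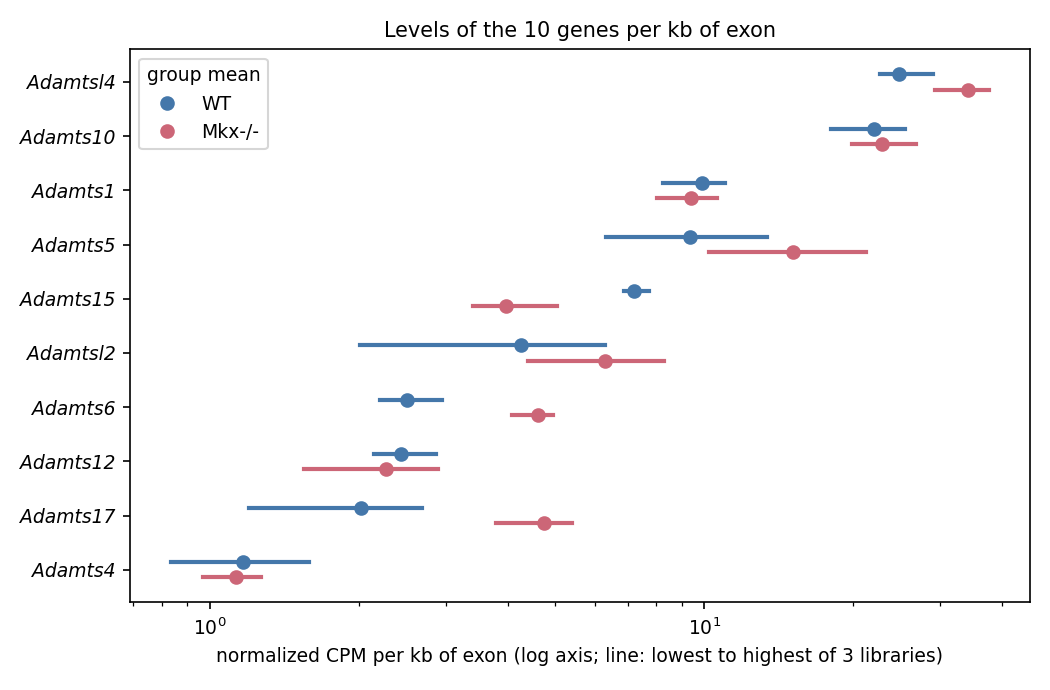
Normalized CPM per kb of exon (horizontal log axis) for the 10 genes in WT (blue) and Mkx-/- (red), with the group mean as a point and the range of 3 libraries as a line. Adamtsl4 and Adamts10 are the highest in both genotypes and Adamts4 the lowest.

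The wider superfamily has 16 further genes, of which 14 had enough counts to be tested, with 2 that rose, 1 that fell (3.18% and 2.26% among all tested genes) and a median log2 fold change of -0.05. *Adamts2*, the procollagen N-proteinase that trims fibrillar collagens, had 1381, 1747 and 1853 normalized CPM in WT and 739, 631 and 674 in Mkx-/- libraries. Its log2 fold change was -1.29 (95% interval -1.66 to -0.91, adjusted p = 0.00462), and it passed the test in all 13 alternatives. It took 66.6% to 70.3% of the normalized CPM of all 26 superfamily genes in WT and 41.3% to 42.2% in Mkx-/- libraries. *Adamts3*, a relative of *Adamts2* that activates the lymphatic growth factor VEGF-C, rose from 66.8, 84.9 and 95.6 normalized CPM in WT to 177, 127 and 141 in Mkx-/- libraries, with a log2 fold change of 0.85 (adjusted p = 0.0342). *Adamtsl5*, a microfibril-binding ADAMTS-like gene, rose from 27.4, 32.7 and 26.3 to 41.5, 52.2 and 57.7 normalized CPM, with a log2 fold change of 0.81 (adjusted p = 0.0259). Without 1 library the call of *Adamts3* was lost in 5 of 6 cases, all but that of WT replicate 1, with an adjusted p of up to 0.111. *Adamtsl5* lost its call in 4 of 6, those without WT replicates 2 or 3 or Mkx-/- replicates 2 or 3, with an adjusted p of up to 0.105.

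Genes for aggrecan and versican, the substrates of the proteoglycan-cleaving branch, rose in RNA level, and their protein was not measured here. Of 7 cartilage and proteoglycan matrix genes listed, 6 were tested, 3 rose and 1 fell, with a median log2 fold change of 1.0, where 3.18% and 2.26% of all tested genes were higher and lower. *Acan*, which encodes aggrecan, had 21.3, 34.5 and 40.3 normalized CPM in WT and 172, 109 and 160 in Mkx-/- libraries, a log2 fold change of 2.20 (adjusted p = 0.00380). *Vcan*, which encodes versican, rose by a log2 fold change of 1.12 (adjusted p = 0.00558), from 33.2, 42.4 and 43.3 to 83.7, 78.2 and 97.3 normalized CPM. *Matn3*, a cartilage matrilin, rose by 1.45 on the log2 scale (adjusted p = 0.00181). These 3 genes passed the test in all 13 alternatives. *Prg4*, which encodes the joint and tendon lubricant lubricin, fell by 1.14 on the log2 scale (adjusted p = 0.0429), with 1410, 1283 and 1078 normalized CPM in WT and 454, 820 and 435 in Mkx-/- libraries. It kept its call only without Mkx-/- replicate 2 when 1 library was left out, with an adjusted p of up to 0.136 otherwise.

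Of 11 microfibril and elastic fibre genes, 4 rose and 1 fell, against 3.18% higher and 2.26% lower among all tested genes, and the median log2 fold change was 0.53 (-0.00 over all genes). *Fbn1*, which encodes the main fibrillin, had 1784, 1895 and 1602 normalized CPM in WT and 2709, 2642 and 2953 in Mkx-/- libraries, a log2 fold change of 0.65 (adjusted p = 0.0458). The groups were well apart, but the call was lost whichever of the 6 libraries was left out, with adjusted p from 0.0585 to 0.166. *Mfap5* and *Fbln5*, which encode a microfibril glycoprotein and an elastin-binding fibulin, rose by 0.93 and 0.68 on the log2 scale (adjusted p = 0.0177 and 0.0141). *Ltbp2*, a fibrillin-binding relative of the latent TGF-β binding proteins, rose by 1.88 (adjusted p = 0.0351), from 25.8, 15.5 and 8.41 to 55.8, 85.6 and 41.8 normalized CPM. *Ltbp1*, which tethers latent TGF-β to the matrix, fell from 141, 189 and 193 to 100, 77.1 and 98.9 normalized CPM, a log2 fold change of -0.92 (adjusted p = 0.0215). Leaving out 1 library at a time, *Mfap5* lost its call without WT replicate 3, Mkx-/- replicate 2 or Mkx-/- replicate 3, with an adjusted p of up to 0.0877. *Fbln5* and *Ltbp1* lost theirs without WT replicates 2 or 3 or Mkx-/- replicates 2 or 3, with an adjusted p of up to 0.0676 and 0.0818. *Ltbp2* lost its call without WT replicates 2 or 3 or Mkx-/- replicates 1 or 2, with an adjusted p of up to 0.126.

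Of 9 genes that activate, modify, inhibit or clear ADAMTS proteases, 3 rose and the other 6 did not pass the test, with a median log2 fold change of 0.36 and, among all tested genes, 3.18% higher and 2.26% lower. *Pcsk5*, a proprotein convertase, had 31.4, 31.9 and 25.6 normalized CPM in WT and 130, 98.5 and 109 in Mkx-/- libraries, a log2 fold change of 1.93 (95% interval 1.57 to 2.28, adjusted p = 0.000878), and passed the test in all 13 alternatives. *Pcsk6*, another convertase, rose by 0.69 on the log2 scale (adjusted p = 0.0165), from 200, 188 and 178 to 311, 292 and 312 normalized CPM. *Timp3*, which encodes the inhibitor of aggrecan-cleaving ADAMTS proteases, rose by 0.75 (adjusted p = 0.0362), from 108, 101 and 114 to 145, 181 and 216 normalized CPM. Both *Pcsk6* and *Timp3* lost their calls without WT replicates 2 or 3 or Mkx-/- replicates 2 or 3, with an adjusted p of up to 0.0854 and 0.124. Over all 26 partner genes tested the median log2 fold change was 0.56, with 10 that rose and 2 that fell, beside the same 3.18% and 2.26% of all tested genes. The partner lists, too, were chosen with earlier results of these data known.

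**Figure D4:**
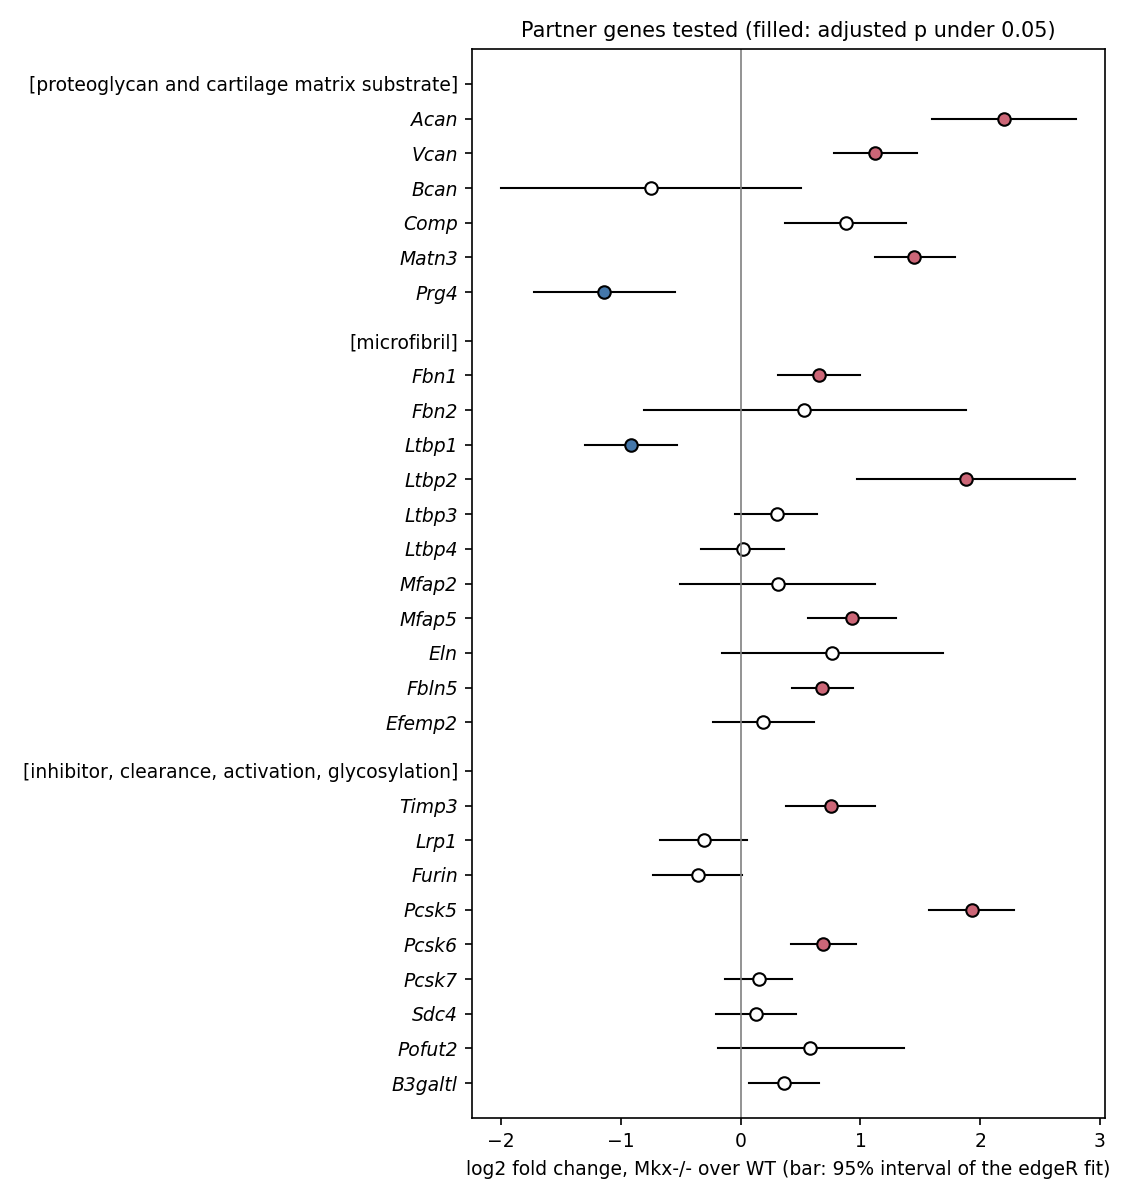
Log2 fold change of Mkx-/- over WT (horizontal axis) for 26 partner genes tested, grouped by role, with 95% intervals as bars and filled points for an adjusted p under 0.05. Filled points lie to the right of 0 in each group, and Prg4 and Ltbp1 are the filled points on the left.

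Marker levels of some other cell types also differed between the libraries. The summed level of 10 skeletal muscle markers was 96.1 to 356 normalized CPM in WT and 491 to 2491 in Mkx-/- libraries, and 2 of them rose. The 8 macrophage and leukocyte markers summed to 457 to 504 in WT and 285 to 344 in Mkx-/- libraries, and 3 of them fell. The 5 Schwann cell markers summed to 7539 to 9999 in WT and 11787 to 21974 in Mkx-/- libraries, and none of them passed the test. The 6 pericyte and smooth muscle markers summed to 327 to 393 in WT and 347, 340 and 899 in Mkx-/- libraries. The highest value was in replicate 3, without which *Adamts15* and *Adamts6* remained called (adjusted p = 0.0148 and 0.0340) and *Adamts17* did not. Of the 10 cartilage markers, 7 were tested and 3 rose, *Ucma* (log2 fold change 3.47, adjusted p = 0.000158), *Acan* and *Matn3*. *Col2a1*, *Col9a2*, *Col11a1* and *Hapln1* did not pass the test. The summed level of the 10 cartilage markers overlapped, at 1573 to 2511 in WT and 1712 to 2749 in Mkx-/- libraries. Among all tested genes 3.18% were higher and 2.26% lower. Endothelial markers summed to 56.5 to 73.2 in WT and 67.0 to 124 in Mkx-/- libraries, keratinocyte markers to 0.788 to 6.77 and 9.77 to 13.2, adipocyte markers to 1.84 to 2.85 and 2.56 to 5.20, and red blood cell markers to 14.8 to 114 and 8.72 to 31.2, with none of their genes past the test. The part of these cell types in the values of the ADAMTS genes was not tested.

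The 3 calls among the 10 genes all lay near the threshold, and each was lost under some alternatives. *Adamts6* passed in 9 of 13, with adjusted p from 0.000900 to 0.0859, *Adamts15* in 7 of 13 (0.000476 to 0.0909) and *Adamts17* in 7 of 13 (0.000659 to 0.125). The direction of these 3 genes was the same in all 13 alternatives.

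**Figure D5:**
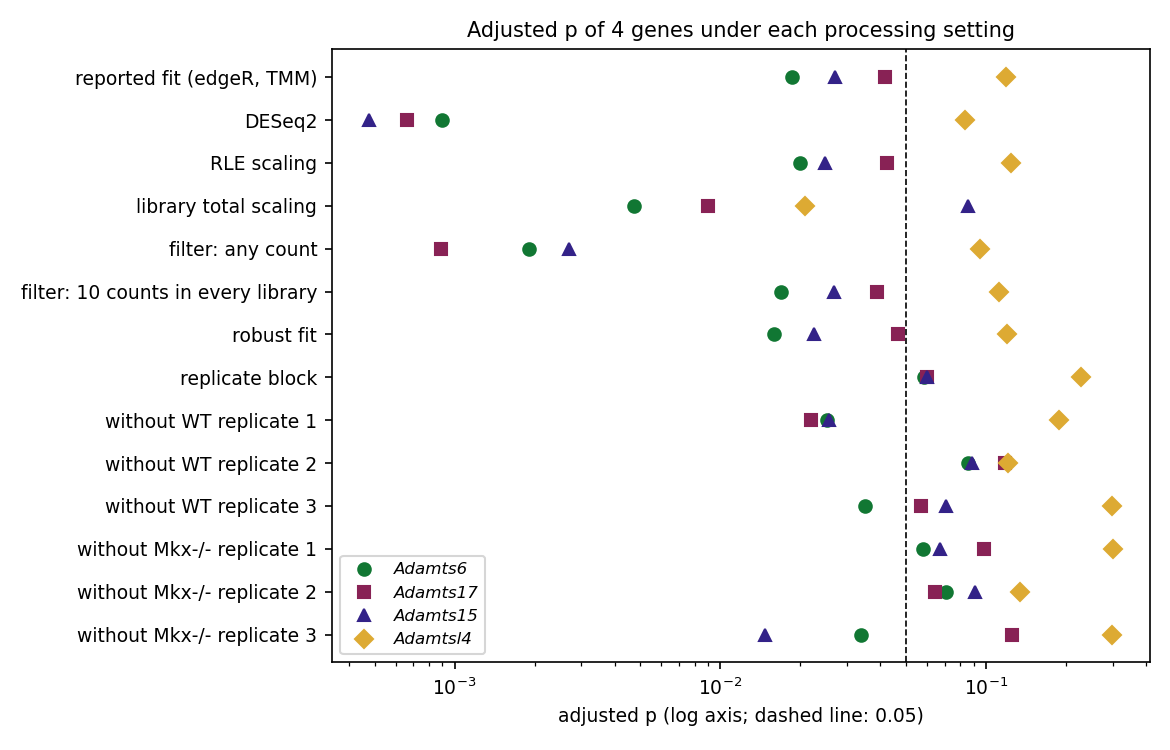
Adjusted p (horizontal log axis) of Adamts6, Adamts17, Adamts15 and Adamtsl4 under the reported fit and 13 alternative settings, with a dashed line at 0.05. For Adamts6, Adamts17 and Adamts15 the lowest values come from DESeq2 and the filter of any count, for Adamtsl4 from library total scaling, and most values with 1 library left out lie above 0.05.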

How the data were processed

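RNA of tail tendons was sequenced on the Ion Proton system from libraries of the Ion Total RNA-Seq Kit, and, after trimming of adaptors and removal of poor reads, the authors aligned them to mm9 with MapSplice. The authors deposited raw counts per gene symbol, without normalization; the counting program, its annotation and its treatment of strand are not given in the sources used here. All 6 columns were mapped to samples by their labels and 0 were unused. In all 6 libraries 19011 of the 44788 symbols were at 0.

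From these counts, normalized CPM and fold changes came from edgeR 4.0.16 in R 4.3.3 (TMM, filterByExpr, quasi-likelihood fit on genotype, robust = FALSE, prior count 0.125, Benjamini-Hochberg over 14550 genes). The biological coefficient of variation was 0.196. DESeq2 1.42.0, RLE and library-total scaling, 2 count filters, a robust fit, a replicate block and each library left out were the alternatives. An exact permutation test of 3 against 3 libraries cannot go below 0.1. The script was tested on simulated data. There edgeR called 53 of 100 genes set to a log2 fold change of size 1 and 89 of 100 set to size 2, with 15 false calls. DESeq2 called 66 and 92 of these genes, with 34 false calls. A gene that did not pass the test may therefore still differ between the genotypes, and a called gene may be a false call.

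The 10 genes and all lists were chosen with earlier results of these data known. All 10 members were named, with *Mkx* and every gene of the other family and partner lists past an adjusted p of 0.05. Of the marker lists, only some of the called genes were named. The grouping of the 10 genes by role was written after the counts were seen. The catalytic pattern was widened from glycine to glycine or asparagine at its eighth codon after the stricter form was not found in 3 proteases. Proteins were aligned with Biopython 1.88. Replicates of a group were compared over genes by chi-square, which gave 8.22 to 40.1 for each degree of freedom. No library was therefore a second deposit of another library of its group. Libraries of different groups were not compared in this way.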

Additional observations from a re-analysis of the deposited data

How the results depend on the processing

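Among the 10 genes, 2 rose and 1 fell in the reported fit. With the replicate number as a replicate block these became 0 and 0 (adjusted p = 0.0586 for *Adamts6*, 0.0601 for *Adamts17* and 0.0600 for *Adamts15*), the genes that rose past 2-fold went from 1 to 0, other family genes that rose from 2 to 0, partner genes that rose from 10 to 5 and those that fell from 2 to 0, and all genes to 264 higher and 170 lower. Deviations from the group means of same-numbered libraries correlated at 0.03, -0.21 and 0.30, and not every library correlated best with its own number, so the numbers were not taken to pair the libraries. Scaling by the library total gave 2 genes of the 10 that rose past 2-fold, 0 that fell, 1 partner gene that fell, and 1358 higher and 197 lower among all genes. DESeq2 gave 768 higher and 565 lower genes and 3 other family genes that fell, the filter of any count 970 and 594 genes and 3 such family genes, and the robust fit 2 such family genes. With 1 library left out, 0 to 2 of the 10 genes rose and 0 to 1 fell, 0 rose and 0 to 1 fell past 2-fold, 0 to 2 other family genes rose and 1 to 4 fell, 4 to 9 partner genes rose and 0 to 2 fell, and all genes gave 117 to 539 higher and 127 to 439 lower. Of the values of the 10 genes under the alternatives, 16 lost a call, 1 gained one and 0 reversed a called direction. The cause of these shifts was not tested. When 1 library was left out, the smaller number of libraries and the loss of that library cannot be told apart. *Adamts4*, with 51 to 79 counts a library, has the largest counting error of the 10 genes.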
